A study of Mus musculus with 4 samples.

Results

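Occupancy of the haematopoietic factor MYB was examined at 5 mouse loci that carry genes for stem and progenitor transcription factors: Gata2, Spi1, Runx1, Erg and Bcl11a. The loci were given as fixed mm9 intervals, chr6:88050000-88210000 for Gata2, chr2:90890000-91000000 for Spi1, chr16:92550000-92880000 for Runx1, chr16:95310000-95640000 for Erg and chr11:23930000-24120000 for Bcl11a, and a peak was assigned to a locus when its centre lay inside the interval. They cover 1.12 Mb and contained 20 of the 10737 listed peaks. The peaks come from CUT&RUN, in which a nuclease tethered to an antibody releases the DNA next to the bound protein. The cells were MEL, a mouse erythroleukemia line arrested at an early erythroid stage. One list was made with an antibody against GFP in cells labelled Myb-GFP (7327 peaks of 337 bp) and the other with an anti-Myb antibody in MEL cells (3410 peaks of 313 bp). The Myb-GFP label is taken to mean cells carrying GFP-tagged Myb, which the labels do not spell out, and whether these cells are a clone or a pool is not given in the sources used here. All groups shared the MEL background and one culture medium, and the peak lists hold no expression values against which the cell type could be checked. The series also has an anti-GFP library from MEL cells without the Myb-GFP label and a library labelled IgRab with no antibody. These were not analysed here, so no level from control cells stands beside the values. Each antibody has 1 library and each peak a constant score of 1, so nothing here has a replicate error, a peak height or a read depth, and no p-value is given.

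MYB is a DNA-binding factor that keeps immature blood cells dividing and whose level falls as red cells mature. The 5 genes encode regulators of the same immature stages. GATA2 is a zinc-finger factor of stem cells and early progenitors that GATA1 replaces during erythroid maturation. Spi1 encodes PU.1, an ETS factor of myeloid and lymphoid fate, known as a gene activated by Friend virus insertion in mouse erythroleukemias. RUNX1 is required for the emergence of blood stem cells, ERG is an ETS factor that maintains them, and BCL11A is a zinc-finger repressor best known for silencing embryonic and fetal globin genes. Several of these genes are known to be regulated from distant and intronic enhancers.

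The files used here hold no mm9 annotation or genome. Where each gene's start, exons and introns lie inside its interval was therefore not determined, a peak may be closer to a neighbouring gene than to the named one, and peak sequences are not printed. By gene order in the RefSeq table for GRCm38.p6, the nearest protein-coding neighbours are Rpn1 and Dnajb8 for Gata2, Slc39a13 and Mybpc3 for Spi1, Clic6 and Setd4 for Runx1, Kcnj15 and Ets2 for Erg, and Papolg and Fancl for Bcl11a.

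What could be read as sequence were the members' promoters in RefSeq, from 250 bases before to 50 bases after a transcript start on GRCm38.p6, which show whether the letters bound by MYB are written there. The table held 8 promoters of 4 of the genes (2 of Gata2, 2 of Runx1, 3 of Erg and 1 of Bcl11a) and was searched on both strands. The MYB core AACNG was found in 5 of these 8, against 80.3% of all 32851 promoters, and its narrower forms AACGG or AACTG in 3 of 8, against 55.1%. Narrower forms are a part of AACNG, so the searches overlap. The GATA motif AGATAA was found in 1 of 8, the third Erg promoter (11.2% of all promoters). The RUNX motif TGTGGT was found in 1 of 8, the first Runx1 promoter, which holds it at 2 places (16.8% of all). The ETS motif GGAAGT was found in 0 of 8 (23.8% of all). Shown are the 4 narrow MYB cores, because MYB is the factor profiled: the matched letters are in capitals, CAGTT being AACTG read on the other strand, and positions are counted from the transcript start.
Runx1 promoter 1, match beginning at -166: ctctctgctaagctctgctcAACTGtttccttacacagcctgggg
Runx1 promoter 1, match beginning at -25: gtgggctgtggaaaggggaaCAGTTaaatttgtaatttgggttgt
Erg promoter 1, match beginning at -225: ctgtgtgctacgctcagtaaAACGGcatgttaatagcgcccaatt
Erg promoter 2, match beginning at -163: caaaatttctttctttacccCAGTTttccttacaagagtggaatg
Promoters are numbered from the outermost start inward. Short motifs are frequent by letter composition alone, as the shares over all promoters show, and a match is a description of the letters, not of binding. Both narrow-core promoters of Erg belong to the one locus whose interval had no peak in either list. Runx1 promoter 1 holds 2 narrow cores, and the Runx1 interval had 7 peaks. Neither Gata2 promoter holds a narrow core, the first holds 1 AACNG core, and the Gata2 interval had 8 peaks. The promoters were not placed relative to any peak, and a relation between cores and peaks was not tested.

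Of the 5 loci, 4 held peaks in both lists and Erg held none in either. The anti-GFP list had 3 peaks in the Gata2 interval, 2 in Runx1, 1 in Spi1 and 1 in Bcl11a. The anti-Myb list had 5 in Gata2, 5 in Runx1, 2 in Spi1 and 1 in Bcl11a. Anti-Myb peaks thus outnumbered anti-GFP peaks at Gata2, Runx1 and Spi1 and equalled them at Bcl11a. They made up 13 of the 20 peaks (65.0%, exact Clopper-Pearson 95% interval 40.8% to 84.6%), whereas on the 4 chromosomes concerned they were 835 of 2602 (32.1%). The interval covers the counting of peaks only, and neighbouring peaks are not independent. The lists differ in antibody, cells and library at once, so the part of each in a difference between them cannot be told apart. With every interval's edges moved in by 20 kb, 7 anti-Myb and 5 anti-GFP peaks were left. Per Mb of the intervals as given, there were 11.6 anti-Myb peaks against 1.56 on the same chromosomes, and 6.25 anti-GFP peaks against 3.31.

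**Figure D1:**
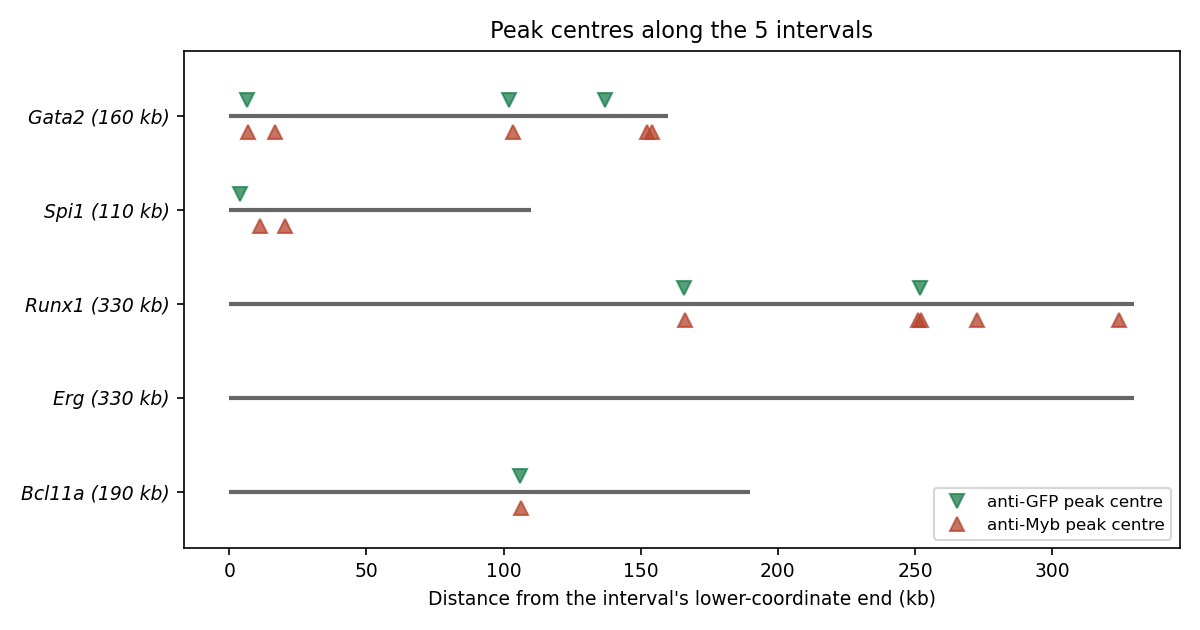
Peak centres along the Gata2, Spi1, Runx1, Erg and Bcl11a intervals, with the distance in kb from the lower-coordinate end on the x axis; grey bars are the intervals to scale, green triangles anti-GFP and red triangles anti-Myb peaks. The 3 Spi1 peaks crowd into the lower end, the Runx1 peaks lie in the upper part, and Erg is empty.

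To place these counts, each interval was set beside all adjoining windows of its own width on its own chromosome. Windows were not restricted to sequence with genes or to mappable sequence, so the shares below are no comparison with other gene loci. For Gata2, 3 or more anti-GFP peaks were found in 3.43% of 903 windows, and 5 or more anti-Myb peaks in 0.111%, a single window. That window held 1 anti-GFP peak, so no window of this width reached both counts. Both counts of the locus were reached in 0.717% of windows at the Runx1 width, 2.35% at the Spi1 width and 22.9% at the Bcl11a width. For Runx1, 2 or more anti-GFP peaks were found in 20.8% of 279 windows and 5 or more anti-Myb peaks in 0.717%, which is 2 windows. For Spi1, 1 or more anti-GFP peaks were found in 20.9% of 1618 windows and 2 or more anti-Myb peaks in 3.03%. For Bcl11a, on gene-rich chromosome 11, 1 or more peaks were found in 45.3% of 620 windows with anti-GFP and in 27.3% with anti-Myb, so its count was a common one. An empty interval such as that of Erg was the usual case: 65.9% of the 279 windows had no peak of either list. Among windows with at least 1 peak of either list, the anti-Myb shares were 0.463% for Gata2, 2.13% for Runx1, 12.2% for Spi1 and 54.9% for Bcl11a. The anti-GFP shares were 14.4%, 61.7%, 83.9% and 91.2% in the same order. Windows with more anti-Myb than anti-GFP peaks were 4.54% of all windows at the Gata2 width, 5.02% at the Runx1 width and 5.13% at the Spi1 width. Most windows were empty and could show no such excess. Of the windows with a peak of either list, those with more anti-Myb peaks were 41 of 216 at the Gata2 width, 14 of 94 at the Runx1 width and 83 of 403 at the Spi1 width.

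**Figure D2:**
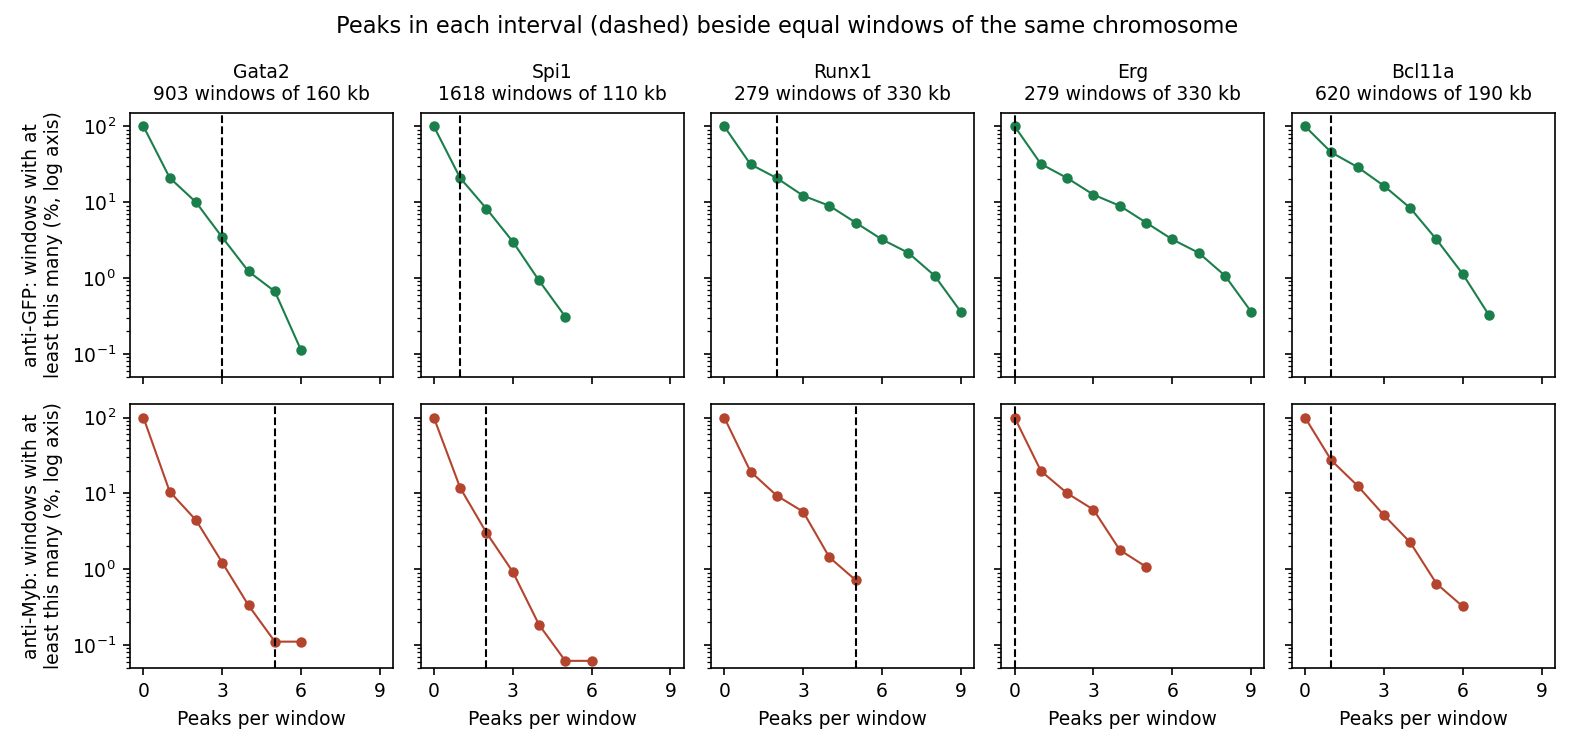
Percent of equal windows on the same chromosome (y, log axis) with at least the number of peaks on the x axis, for anti-GFP (upper row, green) and anti-Myb (lower row, red); dashed lines mark the count in the interval itself. The dashed line meets the anti-Myb curve at 0.111% for Gata2 and 0.717% for Runx1, and at 27.3% for Bcl11a.

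The Gata2 interval held its 8 peaks in 3 stretches. At its lower end an anti-GFP peak at chr6:88056354-88056690 overlapped an anti-Myb peak at chr6:88056581-88056893 by 110 bp, with centres 215 bp apart. The anti-Myb peak that stood earliest in its file among all those at the 5 loci followed at chr6:88066630-88066942, row 220 of the list (6.45% of the way down), with the nearest anti-GFP centre 10.3 kb away. No peak of either list was centred in the next 85.3 kb, the longest empty stretch of this interval. The middle stretch had an anti-GFP peak at chr6:88151925-88152261 and an anti-Myb peak at chr6:88153203-88153515, 1266 bp apart by their centres and not overlapping. This anti-GFP peak was row 7320 of 7327. The early anti-Myb peak and the middle one were 86.6 kb apart. The upper stretch had an anti-GFP peak centred at 88187116 and a pair of anti-Myb peaks centred at 88202115 and 88204061, 1.95 kb from each other. Of the 5 Gata2 anti-Myb peaks, 4 lay within 20 kb of an edge. Moving both edges in by 20 kb left 1 anti-Myb and 2 anti-GFP peaks, and 8.96% and 7.22% of windows of that width held as many. Moving both edges out by 50 kb kept 5 anti-Myb and 3 anti-GFP peaks, and 0.36% and 7.93% of windows of that width held as many. Outside the interval the nearest anti-GFP centres were 106 kb below and 206 kb above it, and the nearest anti-Myb centres 184 kb and 285 kb.

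At Runx1 all 7 peaks lay in the upper 164.4 kb of the interval, and the lower 165.6 kb had none. Its densest site had an anti-GFP peak at chr16:92801451-92801787 with an anti-Myb peak on either side, at chr16:92801080-92801392 and chr16:92802021-92802333. The centres of the flanking peaks were 383 and 558 bp from the anti-GFP centre, with 58 and 233 bp between the edges, so none of the 3 overlapped. The anti-GFP peak was row 72 of its list (0.983%), the earliest row of any peak at the 5 loci, while the anti-Myb peaks stood at 48.6% and 37.3% of theirs. Another site, 86.0 kb lower by the anti-GFP centres, had an anti-GFP peak at chr16:92715451-92715787 and an anti-Myb peak at chr16:92715911-92716223, 123 bp apart at their edges. The other 2 anti-Myb peaks had no anti-GFP peak nearby. One was at chr16:92822404-92822716, 20.9 kb from the nearest anti-GFP centre, and the other at chr16:92874125-92874437, 72.7 kb away and 5.72 kb inside the interval's upper edge. A further anti-Myb peak lay 4.29 kb outside that edge. With the edges moved in by 20 kb, Runx1 kept 4 anti-Myb and 2 anti-GFP peaks, and 1.89% and 19.8% of windows of that width held as many.

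The 3 Spi1 peaks lay in the lowest 20.3 kb of that interval, and the remaining 89.7 kb, 81.6% of its width, had no peak. They were an anti-GFP peak at chr2:90893677-90894013 and anti-Myb peaks at chr2:90901109-90901421 and chr2:90910114-90910426. The anti-GFP centre was 7.42 kb from the nearer anti-Myb centre, the anti-Myb centres were 9.005 kb apart, and nothing overlapped. With the edges moved in by 20 kb, Spi1 kept 1 anti-Myb peak and no anti-GFP peak, and 8.29% of windows of that width held 1 or more anti-Myb peaks. The next anti-GFP peak beyond the upper edge was centred 23.9 kb outside it.

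Bcl11a had a single site, where both antibodies gave a peak. The anti-GFP peak at chr11:24035797-24036133 and the anti-Myb peak at chr11:24036031-24036343 overlapped by 103 bp, with centres 222 bp apart, near the middle of the interval. The anti-GFP peak stood at 8.99% of its list and the anti-Myb peak at 73.2%. This site was isolated: the next centre of either list was 365 kb lower and 4.99 Mb higher. The median of the 947 distances between neighbouring centres on chromosome 11 was 37.1 kb. Of these distances, 50 (5.28%) were at least as long as the lower stretch and 3 (0.317%) at least as long as the higher one.

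Erg, on chromosome 16 as Runx1 is, had no peak centre in 330 kb. The stretch without a peak of either list ran on beyond the interval, from 94920553 to 95661312, 741 kb in all. On this chromosome 22 of 354 distances between neighbouring centres (6.21%) were at least as long, and the median was 47.4 kb. This share counts long and short distances alike, whereas a fixed interval falls more readily into a long one. It therefore does not make the empty Erg interval rare: 65.9% of windows of its width had no peak of either list. Both ends of the stretch were sites of both antibodies. The upper one, 21.3 kb outside the interval, had an anti-GFP peak at chr16:95661144-95661480 (row 94) and an anti-Myb peak at chr16:95661161-95661473 (row 1146), whose centres were 5 bp apart. The lower one, 389 kb outside, had peaks at rows 340 and 3 with centres 180 bp apart. Moving the edges out by 50 kb brought 2 anti-GFP peaks and 1 anti-Myb peak into the Erg interval. An absent peak means that none was listed under the authors' threshold, and does not show that MYB was not bound.

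**Figure D3:**
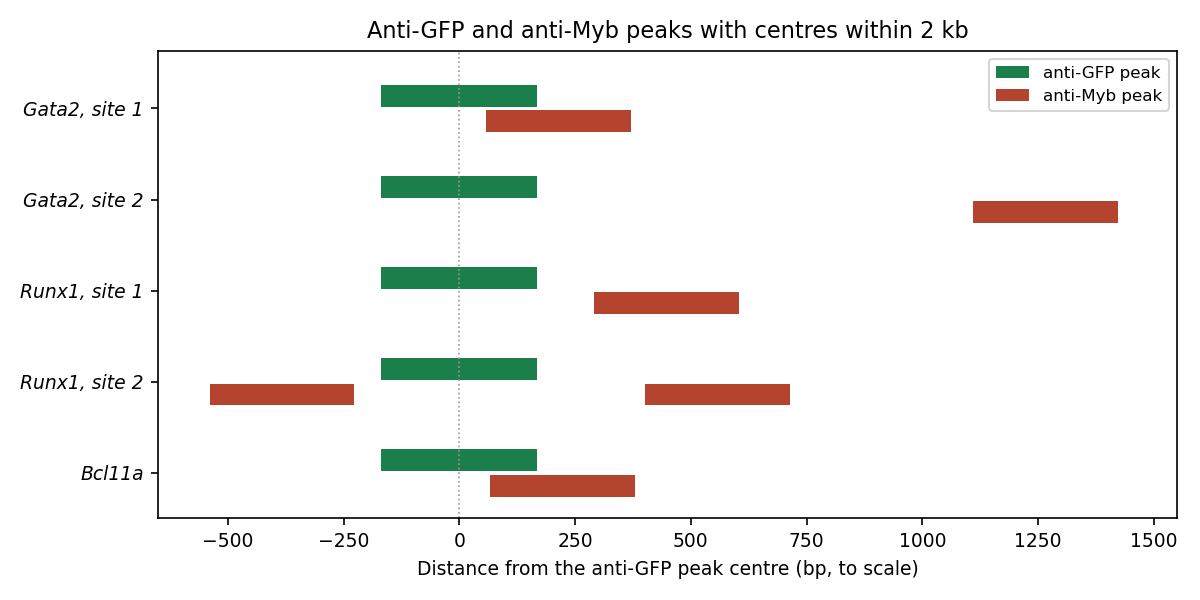
The 5 sites at the loci where an anti-GFP and an anti-Myb centre lay within 2 kb, drawn to scale as the distance in bp from the anti-GFP centre (x axis); green bars are anti-GFP peaks of 337 bp and red bars anti-Myb peaks of 313 bp. Bars overlap at the first Gata2 site and at Bcl11a, and at the second Runx1 site the anti-Myb bars lie on either side of the anti-GFP bar.

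Over the 4 loci with listed peaks, 2 of 7 anti-GFP peaks overlapped an anti-Myb peak (28.6%, exact 95% interval 3.67% to 71.0%), against 8.28% of the whole anti-GFP list. From the other side the same overlaps were 2 of 13 anti-Myb peaks (15.4%, 1.92% to 45.4%), against 17.8% of the anti-Myb list. Allowing centres within 1 kb added both Runx1 sites and gave 4 of 7 anti-GFP peaks (57.1%, 18.4% to 90.1%; whole list 15.3%) and 5 of 13 anti-Myb peaks (38.5%, 13.9% to 68.4%; whole list 32.5%). Within 10 kb there were 6 of 7 anti-GFP peaks (85.7%, 42.1% to 99.6%; whole list 21.7%) and 7 of 13 anti-Myb peaks (53.8%, 25.1% to 80.8%; whole list 46.7%). The median distance from an anti-GFP centre at the loci to an anti-Myb centre was 0.448 kb, against 70.9 kb over the list. In the other direction it was 7.42 kb against 12.6 kb. By the median and the shares within 1 kb and 10 kb, the 7 anti-GFP peaks of the loci lay nearer to anti-Myb peaks than their list did. For overlap, the anti-GFP list share of 8.28% lay inside the interval of the 7 peaks. The anti-Myb shares for overlap, 1 kb and 10 kb all had the shares of their list inside their intervals. These intervals cover the counting of peaks only, and neighbouring peaks are not independent, so they do not decide whether the loci differ from the lists. No test was made of these differences. The intervals held from 5 anti-Myb peaks (Gata2 and Runx1) to 1 (Bcl11a). Whether the number of anti-Myb peaks in an interval bears on these distances was not tested.

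**Figure D4:**
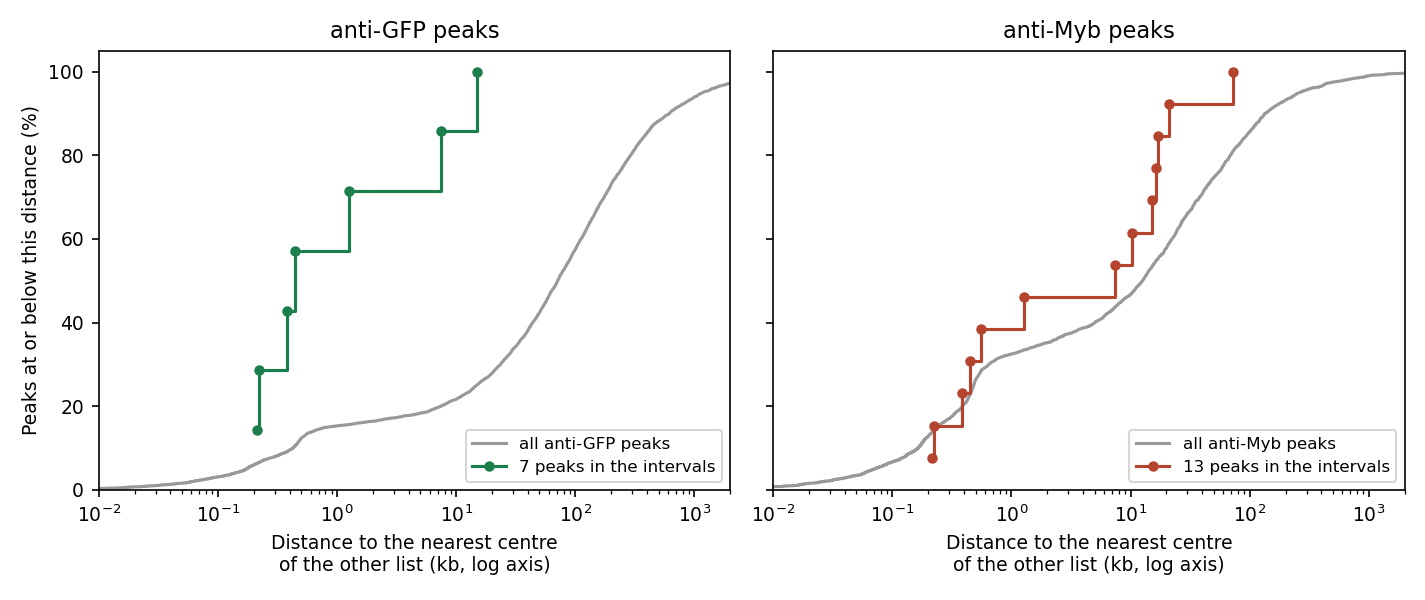
Cumulative percent of peaks (y) by the distance from their centre to the nearest centre of the other list (x, kb, log axis), for anti-GFP (left) and anti-Myb (right); grey lines are the whole lists and coloured steps the 7 and 13 peaks at the loci. No peak at the loci has a distance under 215 bp; from there on the anti-GFP steps lie above their grey line, with a median of 0.448 kb against 70.9 kb, and the anti-Myb steps run near theirs up to about 10 kb and lie above it at longer distances.

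Since score and width were constant, the peaks were ordered by their row in the file, and what the row order follows is not stated. The peak names also hold a running number within the chromosome, which was used as an alternative. Peaks at the loci were spread over both files, from 0.983% to 99.9% of the anti-GFP list (median 49.0%) and from 6.45% to 95.5% of the anti-Myb list (median 48.6%). Of the anti-GFP peaks 2 stood in the first 10% of the rows, at Runx1 and Bcl11a, and 2 in the last 10%, both at Gata2. Sites with both antibodies did not stand at like positions: at Bcl11a the rows were at 8.99% and 73.2%, at the overlapping Gata2 site at 21.3% and 35.04%, and at the lower-coordinate Runx1 site at 49.0% and 95.5%.

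**Figure D5:**
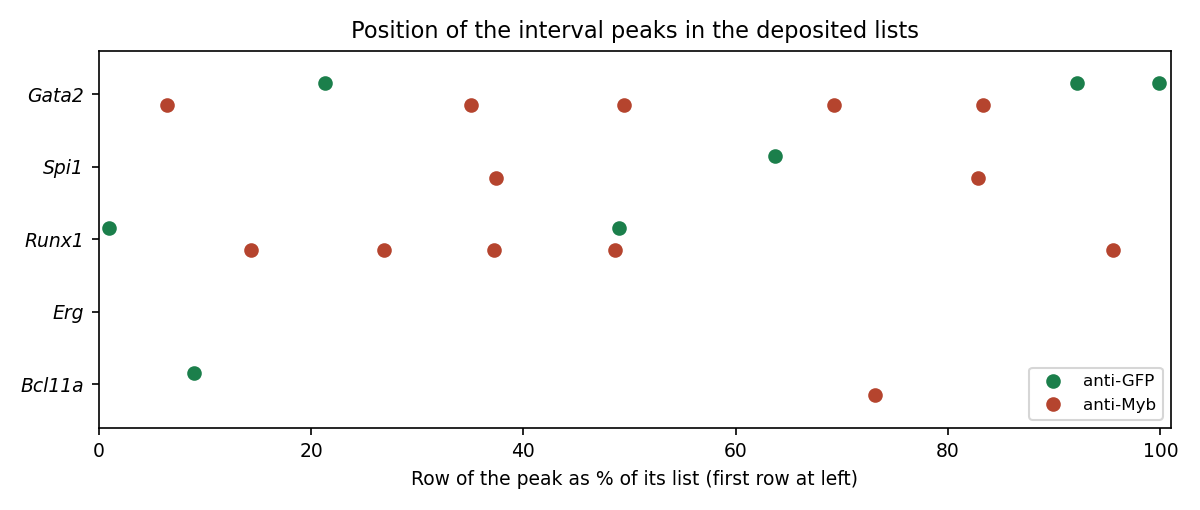
Row of each peak at the loci as a percent of its list (x, first row at the left), by locus (y), with anti-GFP in green and anti-Myb in red. Peaks are scattered from 0.983% to 99.9%, the last 10% of the anti-GFP list holds 2 Gata2 peaks, and Erg has none.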

How the data were processed

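Each peak list belongs to 1 CUT&RUN library. The submitters' processing notes list HOMER 4.10.3, Picard 2.17.11, deepTools 3.4.2, SAMtools 1.11, Trim Galore 0.6.6 and STAR 2.7.9a without saying which did what, and the build mm9. The sources used here do not give the peak threshold, duplicate handling or control library, each of which decides the peaks listed. In the deposited files the score was 1 in every row and all peaks of a list had one width. Read depth is unknown.

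Centres, overlaps (at least 1 bp) and distances were computed in Python 3.11.15 (SciPy 1.17.1, pandas 2.3.3, NumPy 2.4.6) and drawn with Matplotlib 3.10.9. Coordinates are 1-based. Equal windows adjoined from the outermost peak of both lists on a chromosome, as mm9 chromosome lengths were not used, and windows touching the interval were left out. All windows were counted in place of random draws, as a description. Intervals on shares are exact 95% Clopper-Pearson. The counting was tested on simulated data with known answers. All 5 genes were named, with every peak in their intervals. Promoter sequences are from RefSeq (GRCm38.p6); 1892 of 1892 overlapping entries of opposite strand were reverse complements, so sequences run with the gene. The members, motifs and alternatives were chosen with earlier results of these data known.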

Additional observations from a re-analysis of the deposited data

How the results depend on the processing

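Of 134 recomputed values, 87 stayed within 1.5 times the count (or, for shares of windows, within the exact 95% interval) and 47 did not. This tally does not measure robustness, because some settings can move a value in 1 direction only. Using the first 50% of a list can only lower counts. Leaving out windows without a peak raises the share of windows with as many peaks. Windows fitted to edges moved in or out were chosen after seeing the data. Moving edges in by 20 kb left 7 anti-Myb peaks in all, with 1 at Gata2 and 1 at Spi1, and 0 anti-GFP peaks at Spi1; windows of those widths with as many peaks were 7.22% (anti-GFP) and 8.96% (anti-Myb) at Gata2, 8.29% (anti-Myb) at Spi1, and 39.8% and 23.3% at Bcl11a. Moving edges out by 50 kb gave 2 anti-GFP peaks and 1 anti-Myb peak at Erg and 2 anti-GFP peaks at Spi1; the shares became 7.93% (anti-GFP) at Gata2, 16.8% and 6.97% at Spi1, and 52.6% and 35.8% at Bcl11a. Using the first 50% of each list left 4 anti-GFP and 8 anti-Myb peaks: Gata2 had 1 and 3, Spi1 0 and 1, and Bcl11a no anti-Myb peak (0). Counting peaks within 10 kb once left 1 anti-Myb peak at Spi1. Against windows of chromosomes 1 to 19 and X, the shares were 5.61% (Gata2, anti-GFP), 27.1% and 15.9% (Bcl11a). Among windows with a peak of either list, anti-GFP shares were 14.4% at Gata2, 83.9% at Spi1, 61.7% at Runx1 and 91.2% at Bcl11a, and anti-Myb shares 12.2% at Spi1, 54.9% at Bcl11a, 0.463% at Gata2 and 2.13% at Runx1; this setting tests fewer windows. With a gap of up to 500 bp, or centres within 1 kb, 4 of 7 anti-GFP and 5 of 13 anti-Myb peaks were shared. The whole lists had 15% and 31.7% for the gap, and 15.3% and 32.5% for 1 kb. Shared peaks were 0 of either with centres within 100 bp (whole lists 3.14% and 6.74%) or at least 50% of each peak covered (4.41% and 9.47%). With list shares this low, 0 of 7 and 0 of 13 do not set the loci apart. The median anti-GFP distance between edges was 0.123 kb. By running number within the chromosome the median positions were 12.4% (anti-GFP) and 23.8% (anti-Myb). This number is a percent of the highest number on the chromosome and skips values: 1 of the 333 anti-GFP peaks of chromosome 6 has number 1285. The Runx1 anti-GFP peak at 49.0% by row stood at 12.4% by number. The median over the whole list was not computed, so these positions do not show that the peaks stood early. The MYB core was in 3 of 8 promoters with AACGG or AACTG only (55.1% of all promoters), and in 3 of 8 without the first 50% of the window (55.7% of all). Erg stayed without a peak under the other 4 interval settings. No paired analysis was possible because each group had 1 library. Without read counts, a locus with no listed peak cannot be told from one below the authors' threshold.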
